A study of Mus musculus with 12 samples.

Results

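The genes described here carry glucose through the heart muscle cell: its uptake, its breakdown to pyruvate and lactate, its storage as glycogen and the export of lactate. They were chosen by name, as the 31 mouse genes of that pathway whose Ensembl identifiers stand among the 55357 identifiers of a table of raw read counts from 12 mouse hearts. All 31 passed the filter on low counts and were among the 15804 genes tested. Aldoa had a second identifier with 1 to 10 counts per library, which was not used.

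The hearts came from 4 groups of 3 libraries from male mice, the knockouts on a C57BL/6J background, operated on at 8 weeks of age: Cd163-/- mice after transverse aortic constriction (KO TAC), Cd163-/- mice after sham surgery (KO sham), wild-type mice after constriction (WT TAC) and wild-type mice after sham surgery (WT sham). Constriction narrows the aorta with a suture and loads the left ventricle with pressure, and sham surgery leaves the suture out. Cd163 is the macrophage receptor that clears haemoglobin bound to haptoglobin. The labels name no promoter or Cre for the knockout, and RNA came from heart tissue, purified through its poly(A) tails. The sources used here give neither the time from surgery to collection nor the part of the gene that was deleted.

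A healthy adult heart makes most of its ATP from fatty acids and takes a smaller part from glucose and lactate. Glucose enters through GLUT1 (Slc2a1) and the insulin-responsive GLUT4 (Slc2a4), is trapped as glucose-6-phosphate by hexokinase, and is then either stored as glycogen or broken down by glycolysis to pyruvate. Lactate dehydrogenase interconverts pyruvate and lactate, and monocarboxylate transporters carry lactate across the cell membrane. Hypertrophied hearts are known for a greater reliance on glucose.

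Levels are given in CPM, read counts brought to a common library size by the TMM method, and fold changes are on the log2 scale with their standard error (SE). The SE was worked back from the test, as the absolute log2 fold change divided by the square root of its F statistic. Each adjusted p is from edgeR's quasi-likelihood test on all 12 libraries with Benjamini-Hochberg adjustment over the 15804 genes. A gene is said to have risen or fallen where that adjusted p was under 0.05. Nothing in the labels ties a library to its own animal, and the p-values measure only the variation among libraries, which may be technical.

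Total counts ran from 14150109 to 22602225 per library. Cd163 averaged 3.74 ± 0.302 CPM in KO TAC and 4.08 ± 0.816 CPM in KO sham hearts, against 24.1 ± 8.99 CPM in WT TAC and 15.2 ± 1.08 CPM in WT sham hearts (SD, n = 3), and the KO and WT libraries did not overlap. Transcripts of the mitochondrial genome took 44.0 to 51.3% of the counts in KO TAC libraries and 51.0% in KO sham replicate 1. Their share was 31.6% and 30.5% in the other KO sham libraries, 24.8 to 32.5% in WT TAC and 35.1 to 36.9% in WT sham libraries. KO sham replicate 1 stood with the KO TAC hearts in this share. For 28 of the 31 it lay nearer to the KO TAC mean than to the mean of the other KO sham libraries, as it did for 80.4% of all tested genes. WT TAC replicate 1 lay nearer to the KO TAC mean than to the other WT TAC libraries for 16 of the 31, as it did for 55.4% of all tested genes. All 11 heart muscle markers were measured in every group, and the 9 markers of skeletal muscle, which shares many of these enzymes, summed to only 2.96 to 7.71 CPM per library.

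**Figure D1:**
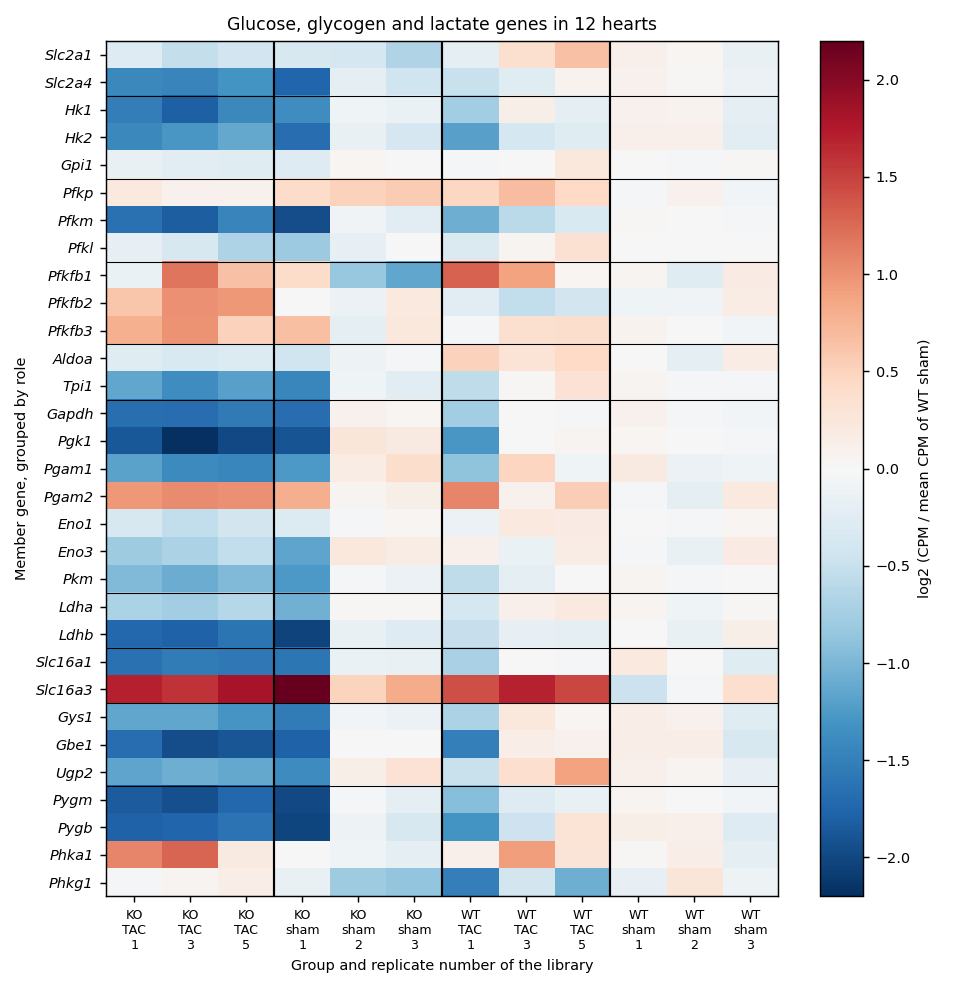
Each cell is the log2 ratio of a gene's CPM in 1 library to its mean over the 3 WT sham libraries, with libraries in columns by group and replicate number and genes in rows by role. The KO TAC columns and KO sham replicate 1 are blue for most rows, while Pfkfb1, Pfkfb2, Pfkfb3, Pgam2, Phka1 and Slc16a3 are red in most of them. Pfkp is faintly red there.

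Calls were made between the genotypes after constriction. In KO TAC against WT TAC hearts, 16 of the 31 genes fell and 2 rose, where 20.4% of all tested genes were called (11.7% of all lower and 8.63% of all higher). The 16 that fell reach from glucose uptake to glycogen storage and lactate transport, and the 2 that rose are Pfkfb2 and Phkg1. The median log2 fold change over the 31 was −0.73, against −0.02 over all tested genes. No library of either group overlapped the other in 22 genes that were lower and 3 that were higher, where 24.3% of all tested genes were lower without overlap and 22.7% higher. The libraries are bulk tissue, so fewer heart muscle cells and less RNA per cell cannot be told apart.

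Both glucose transporters fell. GLUT4 gene Slc2a4 had 107, 104 and 114 CPM in KO TAC hearts, against 204, 239 and 301 CPM in the WT TAC group (log2 fold change −1.19 ± 0.31, adjusted p = 0.0290). Every KO TAC library lay below every WT TAC library. GLUT1 gene Slc2a1 had 8.48, 7.12 and 7.67 CPM in KO TAC hearts, against 8.95, 13.2 and 16.0 CPM in the WT TAC group (log2 fold change −0.71 ± 0.20, adjusted p = 0.0360). The gap here was narrow, 8.48 CPM in KO TAC replicate 1 against 8.95 CPM in WT TAC replicate 1.

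At the trapping step Hk1 fell and Hk2 did not pass. Hexokinase 1 (Hk1) had 47.4, 39.0 and 50.7 CPM in KO TAC hearts, against 80.0, 149 and 118 CPM in WT TAC hearts, and fell (log2 fold change −1.34 ± 0.31, adjusted p = 0.0231). Hexokinase 2 (Hk2), the insulin-regulated form of muscle, had 102, 111 and 124 CPM in KO TAC hearts, against 118, 208 and 225 CPM in WT TAC hearts. Its groups overlapped through WT TAC replicate 1, and it did not pass (log2 fold change −0.71 ± 0.34, adjusted p = 0.140). Gpi1, which turns glucose-6-phosphate into fructose-6-phosphate, stood at 332 ± 11.4 CPM in KO TAC and 407 ± 40.5 CPM in WT TAC hearts (SD, n = 3), a log2 difference of −0.29 ± 0.16 that did not pass (adjusted p = 0.190).

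Of the 3 phosphofructokinase subunit genes, the platelet-type Pfkp passed and fell, with 60.2, 55.2 and 55.2 CPM in KO TAC hearts, against 71.3, 83.1 and 70.0 CPM in the WT TAC group (log2 fold change −0.40 ± 0.13, adjusted p = 0.0479). The Pfkp mean of 56.9 CPM in KO TAC hearts was not below that of WT sham hearts, 51.8 CPM. The muscle subunit Pfkm had a larger fold change and SE and did not pass, with 267, 239 and 307 CPM in KO TAC hearts, against 398, 555 and 664 CPM in the WT TAC group (log2 fold change −0.99 ± 0.38, adjusted p = 0.0772). The liver-type Pfkl had 66.0, 58.4 and 46.5 CPM in KO TAC hearts, against 59.5, 77.1 and 93.8 CPM in WT TAC hearts, with overlap (log2 fold change −0.43 ± 0.22, adjusted p = 0.165). These 3 are not shown to differ from each other in their change, which was not tested.

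The enzymes that make and break fructose-2,6-bisphosphate, the strongest activator of phosphofructokinase, rose or did not pass. Pfkfb2, the form of the heart, had 134, 175 and 169 CPM in KO TAC hearts, against 73.4, 59.8 and 66.1 CPM in WT TAC hearts. The lowest KO TAC library was well above the highest WT TAC library, and Pfkfb2 rose by 1.26 ± 0.17 on the log2 scale, the smallest p of the 31 genes (adjusted p = 0.00916). The inducible Pfkfb3 stood at 14.1, 16.3 and 11.7 CPM in KO TAC hearts, against 8.06, 10.5 and 10.8 CPM in WT TAC hearts, without overlap and without passing (log2 fold change 0.52 ± 0.21, adjusted p = 0.0935). Pfkfb1, the form of liver and skeletal muscle, ranged from 7.38 to 18.5 CPM in KO TAC and from 8.44 to 20.0 CPM in WT TAC hearts (adjusted p = 0.775).

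**Figure D2:**
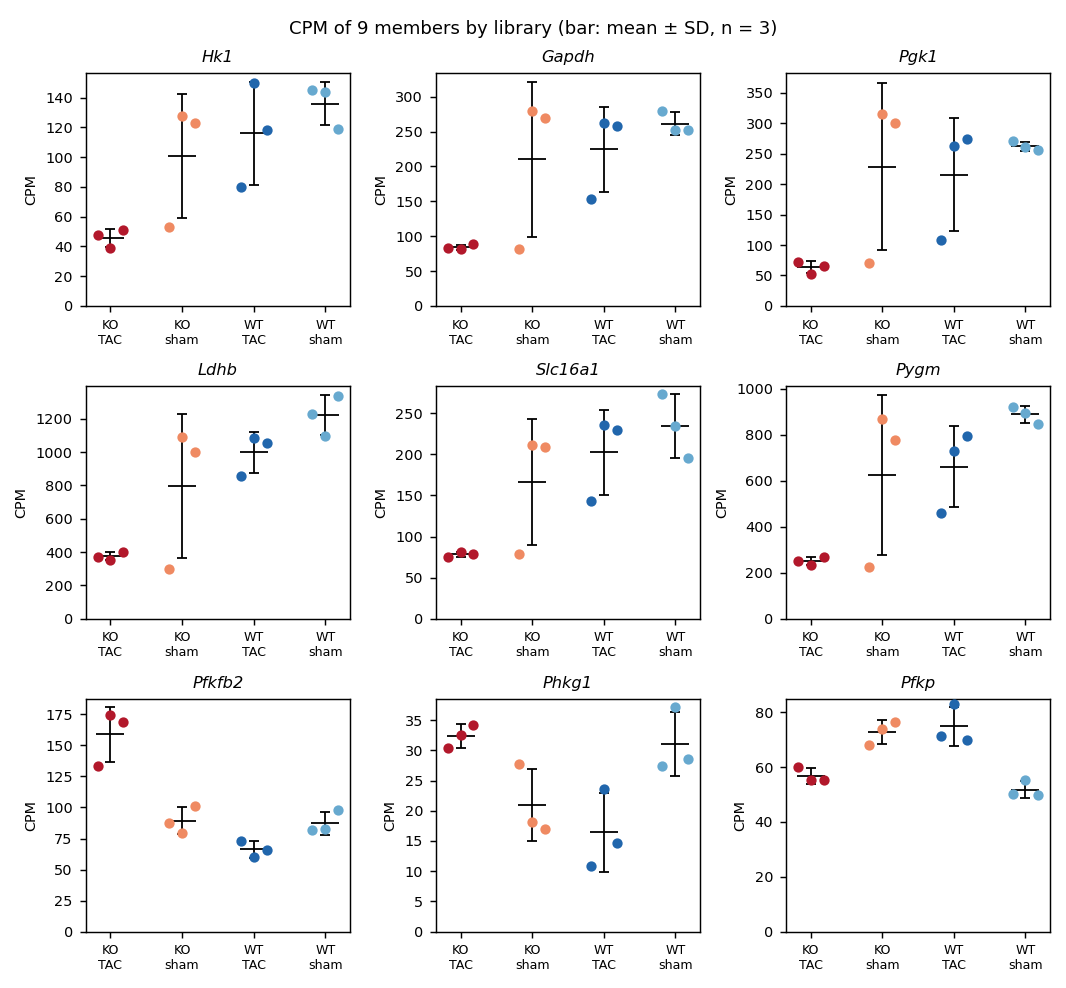
CPM of 9 genes in each library, by group, with points from left to right in ascending replicate number and a bar for the mean ± SD of 3 libraries. For Hk1, Gapdh, Pgk1, Ldhb, Slc16a1 and Pygm the 3 KO TAC libraries and the first KO sham library lie at the bottom, while Pfkfb2 and Phkg1 are higher in KO TAC than in WT TAC libraries.

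Both enzymes that produce triose phosphates fell. Aldolase A (Aldoa), which splits fructose-1,6-bisphosphate, had 1295, 1227 and 1253 CPM in KO TAC hearts, against 2201, 1912 and 2098 CPM in the WT TAC group (log2 fold change −0.72 ± 0.19, adjusted p = 0.0287). Its spread within each group was small beside the gap. Triose phosphate isomerase (Tpi1) had 210.0, 181 and 203 CPM in KO TAC hearts, against 318, 476 and 579 CPM in the WT TAC group (log2 fold change −1.21 ± 0.32, adjusted p = 0.0289).

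In lower glycolysis 4 of 7 genes fell: Gapdh, Pgk1, Pgam1 and Eno1. Gapdh, the glyceraldehyde-3-phosphate dehydrogenase often used as a reference gene, had 82.4, 81.7 and 88.4 CPM in KO TAC hearts, against 154, 262 and 257 CPM in the WT TAC group (log2 fold change −1.41 ± 0.37, adjusted p = 0.0293). Phosphoglycerate kinase 1 (Pgk1), which makes the first ATP of glycolysis, had 71.6, 52.5 and 66.3 CPM in KO TAC hearts, against 109, 263 and 274 CPM in WT TAC hearts. Its log2 fold change of −1.76 ± 0.48 was the lowest of the 31 genes (adjusted p = 0.0316), and WT TAC replicate 1 lay between its group and the KO TAC hearts. The general phosphoglycerate mutase Pgam1 fell by a log2 fold change of −1.26 ± 0.39 (adjusted p = 0.0424), with 14.1, 12.0 and 11.8 CPM in KO TAC hearts, against 17.3, 44.1 and 29.7 CPM in WT TAC hearts. Its muscle counterpart Pgam2 did not pass: it had 671, 716 and 698 CPM in KO TAC hearts, against 726, 369 and 503 CPM in WT TAC hearts, with overlap (log2 fold change 0.38 ± 0.27, adjusted p = 0.297). The general enolase Eno1 fell, to 75.2 ± 5.02 CPM in KO TAC hearts, against 109 ± 14.0 CPM in WT TAC hearts (SD, n = 3; adjusted p = 0.0348). The muscle enolase Eno3 stood at 469.7, 499 and 554 CPM in KO TAC hearts, against 875, 734 and 908 CPM in WT TAC hearts, without overlap (log2 fold change −0.73 ± 0.30, adjusted p = 0.0963). Pyruvate kinase (Pkm), which makes the last ATP of the pathway, likewise had no overlap and did not pass, with a log2 fold change of −0.77 ± 0.28 (adjusted p = 0.0688).

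At the lactate end, the heart-type subunit gene Ldhb fell and the muscle-type Ldha did not pass. Ldhb had 368, 355 and 403 CPM in KO TAC hearts, against 857, 1082 and 1056 CPM in the WT TAC group (log2 fold change −1.41 ± 0.37, adjusted p = 0.0290). Ldha had 274, 263 and 288 CPM in KO TAC hearts, against 341, 483 and 517 CPM in the WT TAC group (log2 fold change −0.70 ± 0.27, adjusted p = 0.0759). The groups did not overlap in either gene. MCT1 gene Slc16a1, which carries lactate in and out of heart muscle cells, had 75.3, 80.9 and 78.4 CPM in KO TAC hearts, against 143, 235 and 229.5 CPM in WT TAC hearts, and fell (log2 fold change −1.37 ± 0.33, adjusted p = 0.0244). MCT4 gene Slc16a3, the exporter of highly glycolytic cells, had the lowest level per kb of the 31, with 2.90, 2.66 and 3.08 CPM in KO TAC hearts and 2.36, 2.85 and 2.45 CPM in WT TAC hearts (adjusted p = 0.764).

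All 3 genes of glycogen synthesis fell. Glycogen synthase Gys1 had 37.1, 37.1 and 33.2 CPM in KO TAC hearts, against 50.5, 95.8 and 84.5 CPM in the WT TAC group (log2 fold change −1.10 ± 0.34, adjusted p = 0.0420). The branching enzyme Gbe1 had 14.5, 11.9 and 12.5 CPM in KO TAC hearts, against 16.3, 51.2 and 48.9 CPM in the WT TAC group (log2 fold change −1.58 ± 0.47, adjusted p = 0.0382). Ugp2, which makes the UDP-glucose that is added to glycogen, had 124, 132 and 127 CPM in KO TAC hearts, against 197, 359 and 508 CPM in the WT TAC group (log2 fold change −1.47 ± 0.40, adjusted p = 0.0317). WT TAC replicate 1 was the lowest WT TAC library for each of the 3, and its Gbe1 value was close to the KO TAC libraries.

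Of 4 genes of glycogen breakdown 1 fell and 1 rose. The muscle phosphorylase Pygm fell, with 249, 233 and 267 CPM in KO TAC hearts, against 462, 731 and 793 CPM in the WT TAC group (log2 fold change −1.41 ± 0.40, adjusted p = 0.0341). The brain-type phosphorylase Pygb, which the heart also uses, had 169, 174 and 188 CPM in KO TAC hearts, against 233, 422 and 715 CPM in WT TAC hearts, and did not pass (log2 fold change −1.37 ± 0.46, adjusted p = 0.0526). Phosphorylase kinase, the enzyme that switches phosphorylase on, was measured through 2 muscle-type subunits. Its catalytic subunit gene Phkg1 rose, with 30.4, 32.5 and 34.2 CPM in KO TAC hearts, against 10.9, 23.6 and 14.7 CPM in the WT TAC group (log2 fold change 0.98 ± 0.27, adjusted p = 0.0315). The regulatory alpha subunit gene Phka1 varied within the groups, with 82.3, 94.9 and 44.5 CPM in KO TAC hearts, against 42.2, 73.6 and 47.2 CPM in WT TAC hearts (adjusted p = 0.228).

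The number called depended on single libraries, among the 31 as among all genes, of which 3219 were called. It was 1 without KO TAC replicate 1, 3 or 5, where 58, 43 and 437 of all genes were called. It was 1 without WT TAC replicate 5 and 2 without WT TAC replicate 3, where 166 and 85 of all genes were called. It was 11 without WT sham replicate 1 or 2, where 1716 and 1903 were called, and 25 without KO sham replicate 1 (22 lower and 3 higher), where 40.7% of all tested genes were called, 22.1% lower and 18.5% higher. With the replicate number of the titles as a block it was 9, and 2411 of all genes were called. Pfkfb2 passed under each of the 23 alternatives tried, with adjusted p from 8.86e-12 to 0.0418.

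**Figure D3:**
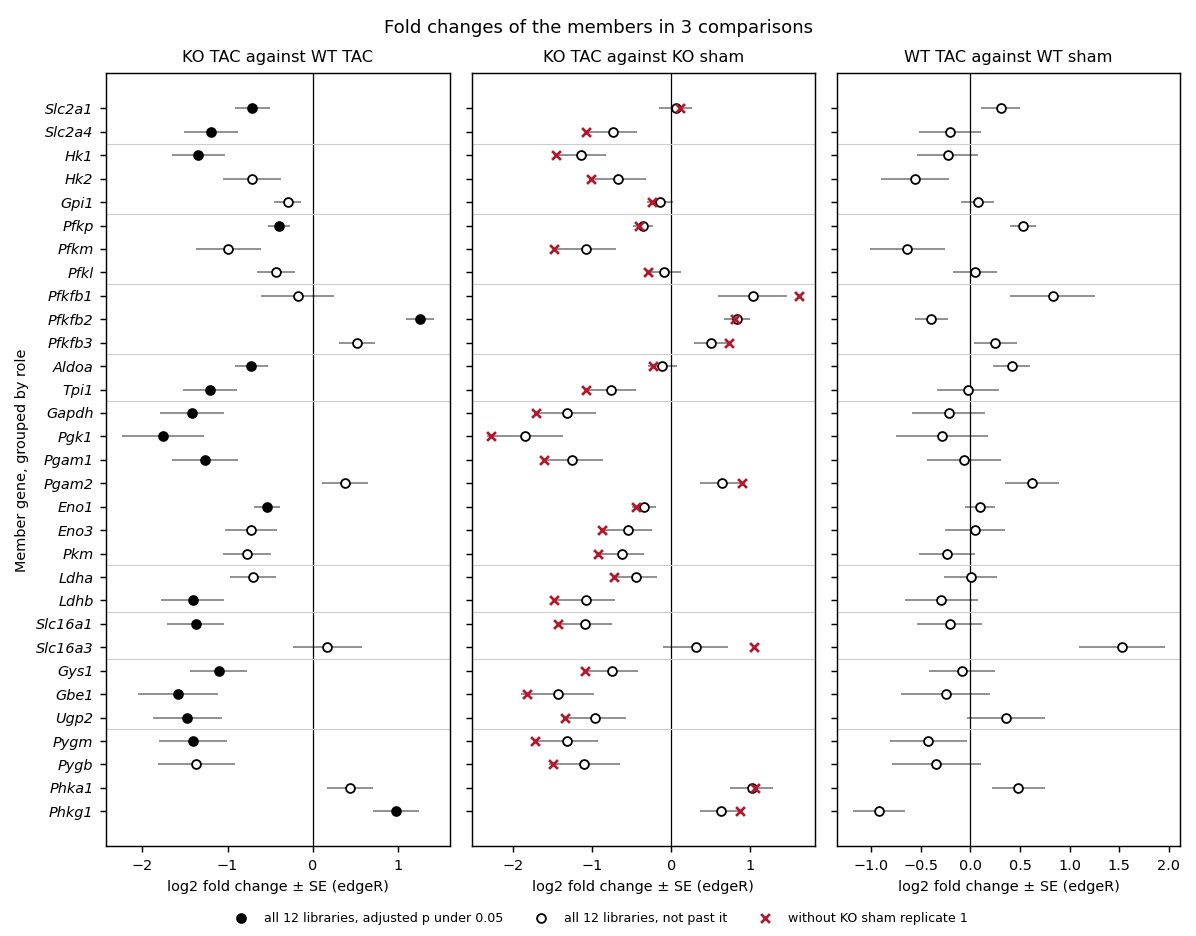
Log2 fold changes with SE in 3 comparisons, with genes in rows by role, filled points for adjusted p under 0.05 and red crosses, in the middle panel, for the values without KO sham replicate 1. For KO TAC against WT TAC hearts 18 points are filled, and in the other 2 comparisons none is.

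Heart muscle markers and atrial and fat cell markers moved with the comparison. The 11 heart muscle markers summed to 42569 to 45830.5 CPM in KO TAC libraries and 33649.9 CPM in KO sham replicate 1, against 63069 to 67785 CPM in WT TAC libraries. Within the list, Actc1, Ryr2, Pln, Atp2a2 and Myl3 fell, while Tnni3, Myl2, Mybpc3 and Ttn had log2 fold changes between −0.10 and −0.01. Myh6 at −0.55 ± 0.27 (adjusted p = 0.141) and Tnnt2 at −0.51 ± 0.19 (adjusted p = 0.0720) lay lower and did not pass. The 4 atrial markers summed to 323 to 1514 CPM in KO TAC libraries, against 2.67 to 9.51 CPM in WT TAC libraries, and all 4 rose. Their sum was 1832 CPM in KO sham replicate 1, the highest of all 12 libraries, and 901 CPM in WT sham replicate 2. The 5 fat cell markers, of which the 4 tested rose, summed to 18.3 to 23.9 CPM in KO TAC libraries, against 0.147 to 1.08 CPM in WT TAC libraries, and stood at 23.1 CPM in KO sham replicate 1. Endothelial markers summed to 996 to 1034 CPM in KO TAC libraries, against 663 to 979 CPM in WT TAC libraries. Of these only Egfl7 did not overlap between the groups. Fibroblast markers summed to 1228 to 1375 CPM in KO TAC and 726 to 1370 CPM in WT TAC libraries, with overlap. The part of these tissues, and of the higher mitochondrial share, in the changes of the glucose genes was not tested. With each library scaled to the summed heart muscle markers instead, Hk1, Gapdh, Pgk1, Ldhb and Slc16a1 fell, Pfkfb2 and Phkg1 rose, and the other 11 called genes did not pass, where 2750 of all genes were called. The scaling moved every gene alike, with the median of all tested genes at 0.55 and that of the 31 at −0.16. Gpi1, Pfkp, Pfkl, Pfkfb1 and Eno1 then had positive values, between 0.045 and 0.37 on the log2 scale, and none passed.

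The promoters of the 4 genes with the smallest p in KO TAC against WT TAC hearts are shown because Pfkfb2 rose where Hk1, Slc16a1 and Aldoa fell. Each line gives the 250 bases before the start that RefSeq lists first on mouse build GRCm38.p6, read 5′ to 3′ on the strand of the gene. First means the order of the list, which need not be the most upstream start. The windows of Pfkfb2 and Aldoa lie inside the spans of these genes in GENCODE vM21. Capitals mark ACGTG and GCGTG, the cores bound by the hypoxia factor HIF-1, CACGTG, the E-box bound by MYC, which holds ACGTG within it, and AAGGTCA, the site of oestrogen-related receptors, each on either strand.
Pfkfb2 (chr1:130715822-130716071, minus strand): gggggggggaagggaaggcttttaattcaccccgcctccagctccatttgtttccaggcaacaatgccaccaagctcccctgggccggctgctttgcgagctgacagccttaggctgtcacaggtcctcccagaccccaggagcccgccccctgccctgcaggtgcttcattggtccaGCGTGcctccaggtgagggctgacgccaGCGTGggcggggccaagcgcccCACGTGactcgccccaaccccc
Slc16a1 (chr3:104638414-104638663, plus strand): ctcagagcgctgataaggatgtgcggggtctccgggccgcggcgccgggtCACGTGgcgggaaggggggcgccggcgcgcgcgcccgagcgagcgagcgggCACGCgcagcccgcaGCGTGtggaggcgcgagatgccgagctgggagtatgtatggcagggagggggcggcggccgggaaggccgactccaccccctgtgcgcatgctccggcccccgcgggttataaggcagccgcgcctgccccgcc
Hk1 (chr10:62379909-62380158, minus strand): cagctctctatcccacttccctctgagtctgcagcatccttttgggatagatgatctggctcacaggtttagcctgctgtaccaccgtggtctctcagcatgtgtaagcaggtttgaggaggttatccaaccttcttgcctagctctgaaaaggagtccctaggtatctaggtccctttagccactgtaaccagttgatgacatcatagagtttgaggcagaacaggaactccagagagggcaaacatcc
Aldoa (chr7:126800448-126800697, minus strand): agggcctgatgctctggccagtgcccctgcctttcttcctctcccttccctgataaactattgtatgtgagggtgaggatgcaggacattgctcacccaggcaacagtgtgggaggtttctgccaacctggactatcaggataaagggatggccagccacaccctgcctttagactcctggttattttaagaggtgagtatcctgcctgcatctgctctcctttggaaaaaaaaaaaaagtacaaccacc
The E-box stood in both the promoter of Pfkfb2, which rose, and that of Slc16a1, which fell, and the windows of Hk1 and Aldoa held none of the motifs. RefSeq lists 3 starts for Pfkfb2 and Aldoa, 2 for Hk1 and 1 for Slc16a1, and the gene counts do not tell which start was used. Over the 30 genes with a listed promoter, 19 of 47 windows (40.4%) held ACGTG, against 16.6% of all 32851 promoter windows of that length. GCGTG stood in 48.9% of them, against 28.2% of all windows, CACGTG in 10.6% against 6.02%, and AAGGTCA in 4.26% against 4.08%. Starts of a gene overlap, and the windows were searched for letters alone.

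After constriction in the knockout itself, none of the 31 genes passed against KO sham hearts, where 0% of all tested genes did. At an unadjusted p under 0.05 there were 23 of the 31 and 4878 of all genes. No KO TAC library overlapped KO sham in 3 genes that were lower and 4 that were higher, against 10.8% and 11.6% of all tested genes. DESeq2 called 12 of the 31 and 1757 of all genes, and edgeR without a filter on low counts 5 and 687. With a weight for each library, limma-voom called 27 and 9991. Such weights can lower the part of a library that stands apart, such as KO sham replicate 1. The limma-voom counts are therefore not independent of leaving that library out, and the weights were not examined. Pgk1 had 71.6, 52.5 and 66.3 CPM in KO TAC hearts, against 70.1, 316 and 301 CPM in KO sham hearts (log2 fold change −1.85 ± 0.48, adjusted p = 0.103). Ldhb had 368, 355 and 403 CPM in KO TAC hearts, against 298, 1089 and 1002 CPM in KO sham hearts (log2 fold change −1.09 ± 0.37, adjusted p = 0.108). In both genes KO sham replicate 1 lay with the KO TAC libraries and the other 2 KO sham libraries lay far above them. Gapdh, Pygm, Slc16a1, Hk1 and Gbe1 showed the same arrangement, with log2 fold changes of −1.32, −1.32, −1.09, −1.14 and −1.44.

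Without KO sham replicate 1, 20 of the 31 fell and 7 rose in KO TAC against KO sham hearts, where 47.6% of all tested genes were called, 25.2% lower and 22.4% higher. This library was singled out because it lay with the KO TAC libraries in these same values. Leaving it out therefore favours such calls, and they are not independent evidence of a TAC effect. No library overlapped then in 22 lower and 7 higher genes, against 37% and 35.9% of all tested genes. The median over the 31 was then −0.93, against 0.01 over all genes. Among those that fell were Pgk1 at −2.28 ± 0.30 (adjusted p = 0.000187), Gapdh at −1.71 ± 0.20 (adjusted p = 0.000111), Pygm at −1.73 ± 0.20 (adjusted p = 0.000111) and Ldhb at −1.48 ± 0.16 (adjusted p = 8.42e-05). All 3 genes of glycogen synthesis and 6 of the 7 of lower glycolysis fell. The 7 that rose were Pfkfb1, Pfkfb2, Pfkfb3, Pgam2, Slc16a3, Phka1 and Phkg1, with all 3 fructose-2,6-bisphosphate enzymes among them. Pfkfb1 had 7.38, 18.5 and 12.7 CPM in KO TAC hearts, against 4.56 and 3.70 CPM in the KO sham libraries kept and 10.9 CPM in the one left out. Pgam2 had 671, 716 and 698 CPM in KO TAC hearts, against 363 and 378 CPM in those kept and 600.2 CPM in the one left out. Slc2a1, Gpi1, Pfkl and Aldoa did not pass in either fit, with values between −0.30 and 0.10 without that library. Markers of other tissues moved with this comparison too. Heart muscle markers summed to 42569 to 45830.5 CPM in KO TAC libraries, against 64581 and 59610.2 CPM in the KO sham libraries kept. Atrial markers summed to 323 to 1514 CPM in KO TAC libraries, against 217 and 154 CPM, and fat cell markers to 18.3 to 23.9 CPM, against 4.36 and 3.84 CPM in those kept. Their part in the changes was not tested.

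Pfkfb2, Phka1 and Pfkp are the exceptions to the place of KO sham replicate 1. Pfkfb2 had 134, 175 and 169 CPM in KO TAC hearts, against 87.2, 79.8 and 101 CPM in KO sham hearts, so that every KO sham library, replicate 1 included, lay below every KO TAC library. Its log2 fold change was 0.83 ± 0.17 with all libraries (adjusted p = 0.103) and 0.81 ± 0.17 without that library (adjusted p = 0.00264). For Phka1 and Pfkp the groups did not overlap either. Phka1 had 82.3, 94.9 and 44.5 CPM in KO TAC hearts, against 39.2, 36.4 and 33.8 CPM in KO sham hearts (log2 fold change 1.02 ± 0.27, adjusted p = 0.103). Pfkp had 60.2, 55.2 and 55.2 CPM in KO TAC hearts, against 68.2, 73.7 and 76.5 CPM in KO sham hearts (log2 fold change −0.36 ± 0.13, adjusted p = 0.113).

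In WT TAC against WT sham hearts none of the 31 passed, where 0.0316% of all tested genes did. The median over the 31 was −0.07 against 0.01 over all genes, and 6 of the 31 had an unadjusted p under 0.05, as had 2562 of all genes. DESeq2 called 3 of the 31 and 466 of all genes, and limma-voom 3 and 1030. The 4 with the smallest p were Slc16a3, Pfkp, Phkg1 and Pfkfb2. Slc16a3 had 2.36, 2.85 and 2.45 CPM in WT TAC hearts, against 0.635, 0.862 and 1.14 CPM in WT sham hearts, a log2 fold change of 1.53 ± 0.43 that did not pass (adjusted p = 0.177). It rests on 45 to 53 counts per WT TAC library and 12 to 23 per WT sham library. Pfkp, the subunit gene of nonmuscle cells, lay higher in all WT TAC libraries, while Phkg1 and Pfkfb2 lay lower. Pfkp had 71.3, 83.1 and 70.0 CPM in WT TAC hearts, against 50.2, 55.2 and 49.9 CPM in WT sham hearts (log2 fold change 0.53 ± 0.13, adjusted p = 0.125). Phkg1 had 10.9, 23.6 and 14.7 CPM in WT TAC hearts, against 27.4, 37.1 and 28.6 CPM in WT sham hearts (log2 fold change −0.92 ± 0.27, adjusted p = 0.180). Pfkfb2 had 73.4, 59.8 and 66.1 CPM in WT TAC hearts, against 81.6, 82.5 and 97.8 CPM in WT sham hearts (log2 fold change −0.39 ± 0.16, adjusted p = 0.276). The groups did not overlap in any of these 4, where 13.4% of all tested genes were higher without overlap and 13.7% lower. Without KO sham replicate 1, which is in neither group and enters through the shared spread, Slc16a3 and Pfkp rose and Phkg1 fell, where 6.53% of all tested genes were called, 3.4% higher and 3.14% lower, with adjusted p of 0.00996, 0.0245 and 0.0347.

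Within the WT TAC group replicate 1 was the low library for much of the pathway. Its Pgk1, Gbe1, Pgam1 and Hk2 stood at 109, 16.3, 17.3 and 118 CPM, each below the other WT TAC libraries and below all WT sham libraries. Its Aldoa, at 2201 CPM, and its Pgam2, at 726 CPM, were the highest of all 12 hearts. With this library and KO sham replicate 1 both left out, the median over the 31 was 0.14 for WT TAC against WT sham hearts, the other side of 0.

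Between the genotypes after sham surgery none of the 31 passed, where 0.00633% of all tested genes did, and 3 of the 31 had an unadjusted p under 0.05, as had 2138 of all genes. DESeq2 called 1 of the 31 and 183 of all genes, and limma-voom 6 and 2351. The median was −0.31 with all libraries and −0.08 without KO sham replicate 1, where 0.241% of all tested genes were called and none of the 31. The 4 with the smallest p were Pfkp, Slc16a3, Slc2a1 and Phkg1. Pfkp had 68.2, 73.7 and 76.5 CPM in KO sham hearts, against 50.2, 55.2 and 49.9 CPM in WT sham hearts, without overlap (12.2% of all tested genes were higher and 10.4% lower in this way; log2 fold change 0.49 ± 0.13, adjusted p = 0.243). Slc16a3 had 4.37, 1.23 and 1.55 CPM in KO sham hearts, against 0.635, 0.862 and 1.14 CPM in WT sham hearts, also without overlap (log2 fold change 1.39 ± 0.43, adjusted p = 0.276). Slc2a1 had 8.05, 7.85 and 6.51 CPM in KO sham hearts, against 11.1, 10.7 and 9.15 CPM in WT sham hearts (log2 fold change −0.46 ± 0.20, adjusted p = 0.356). Scaled to heart muscle markers, the median over the 31 in this comparison was 0.15, against 0.58 over all genes. Of the 31, 10 had negative values then, and Slc2a1 stood at 0.13, the other side of 0. Leaving out any 1 library called none of the 31 in this comparison.

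The difference between the TAC effects of the 2 genotypes, KO minus WT, passed for none of the 31 with all libraries, where 0% of all tested genes passed. At an unadjusted p under 0.05 there were 6 of the 31 and 1452 of all genes, and DESeq2 called 3 of the 31 and 81 of all genes, and limma-voom 22 and 5056. The 4 with the smallest p were Pfkfb2 at 1.23 ± 0.23 (adjusted p = 0.162), Pfkp at −0.89 ± 0.18 (adjusted p = 0.227), Phkg1 at 1.55 ± 0.38 (adjusted p = 0.308) and Ugp2 at −1.33 ± 0.56 (adjusted p = 0.530). Without KO sham replicate 1, 14 of the 31 were lower and 2 higher, Pfkfb2 and Phkg1, where 12.1% of all tested genes were called, 7.45% lower and 4.66% higher. That library was singled out for its place in these same values, so these calls are not independent evidence either. The comparisons within this design share groups with each other, so their values for a gene are not independent.

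Isoform shares were set from CPM per kb of merged exons, within each library. Muscle-type Pgam2 made up 99.1, 99.3 and 99.3% of the phosphoglycerate mutase level in KO TAC hearts and 99.1, 96.0 and 95.6% in KO sham hearts, against 99.0, 95.2 and 97.6% in WT TAC and 95.7, 96.0 and 97.0% in WT sham hearts. Ldha made up 26.1, 26.0 and 25.3% of the lactate dehydrogenase level in KO TAC hearts and 25.5, 16.5 and 17.8% in KO sham hearts, against 15.9, 17.5 and 18.9% in WT TAC and 15.2, 15.3 and 13.9% in WT sham hearts. All KO TAC libraries and KO sham replicate 1 lay above the other 8 libraries, and Ldhb was the larger part in every library.

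Pfkm made up 84.8, 84.8 and 89.2% of the phosphofructokinase level in KO TAC hearts and 84.9, 94.0 and 92.7% in KO sham hearts, against 89.3, 90.3 and 91.2% in WT TAC and 94.4, 94.3 and 94.3% in WT sham hearts. The WT sham libraries lay close together and above every TAC library. Slc16a3 made up 3.10, 2.66 and 3.17% of the lactate transporter level in KO TAC hearts, against 1.36, 0.997 and 0.881% in WT TAC hearts, without overlap. It stood at 4.44, 0.482 and 0.613% in KO sham hearts, against 0.193, 0.306 and 0.486% in WT sham hearts. Every TAC library lay above every sham library in this share, except that KO sham replicate 1 was the highest of all 12. GLUT4 gene Slc2a4 held 92.7, 93.6 and 93.8% of the 2 glucose transporters in KO TAC hearts, against 95.8, 94.8 and 95.0% in WT TAC hearts. Hk2 held 75.4, 80.2 and 77.7% of the 2 hexokinases in KO TAC hearts, against 67.8, 66.6 and 73.1% in WT TAC hearts. For Eno3 against Eno1 and Pygm against Pygb the KO TAC and WT TAC groups overlapped. These shares are descriptions and were not tested. Those with Pgam1, Eno1 or Ldha also rest on uncertain counts, since how reads that match several copies were counted is not given.

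**Figure D4:**
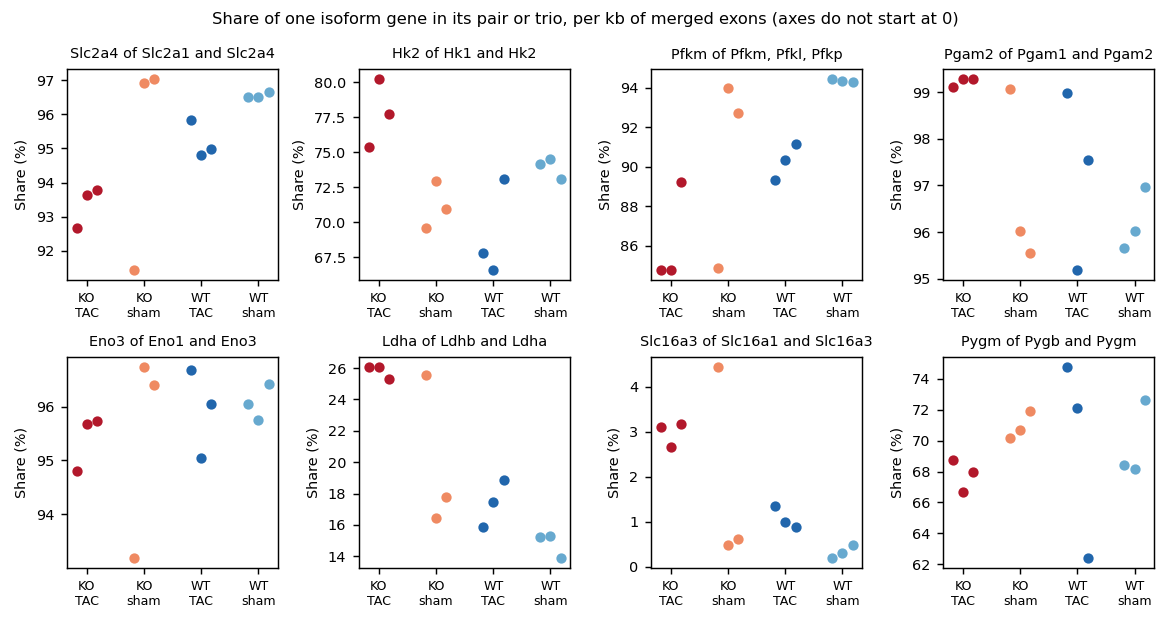
Share of an isoform gene in the summed CPM per kb of its pair or trio, in percent, for each library by group, with points from left to right in ascending replicate number. KO TAC libraries and the first KO sham library lie apart for Ldha and Slc16a3, and KO TAC libraries overlap WT TAC libraries for Eno3 and Pygm.

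Set per kb of merged exons, the order of the levels changed with the groups. In KO TAC hearts Pgam2 had the highest mean level, 827 CPM per kb, before Aldoa at 432, Eno3 at 292 and Ldhb at 239 CPM per kb. In WT sham hearts Ldhb led with 779 CPM per kb, before Aldoa at 533, Eno3 at 466 and Pgam2 at 413 CPM per kb. Slc16a3 and Pfkfb3 were the lowest in all 4 groups. Summed over the 31 genes, CPM ran from 5802 to 6083 in KO TAC hearts and stood at 5046 in KO sham replicate 1, against 8834 to 11657 in WT TAC hearts. The sum was 10002 and 10434 CPM in the other KO sham and 10256 to 10996 CPM in WT sham hearts. The genes that fell in KO TAC against WT TAC hearts had a median merged exon length of 3492 bases and those not called one of 5001 bases, with ranges that overlapped.

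Further genes around the pathway were listed by role, 76 in all, of which 70 passed the filter. Between KO TAC and WT TAC hearts 16 of the 70 fell and 2 rose, where 20.4% of all tested genes were called, 11.7% lower and 8.63% higher. Of 18 further glycogen genes 7 fell and 1 rose. Glycogenin (Gyg), the protein primer of glycogen, had 57.4, 48.4 and 52.6 CPM in KO TAC hearts, against 86.0, 145 and 167 CPM in the WT TAC group (log2 fold change −1.33 ± 0.30, adjusted p = 0.0216). Ppp1r3a, a glycogen-targeting subunit of protein phosphatase 1, fell, with a log2 fold change of −1.63 ± 0.45 (adjusted p = 0.0320). Of 12 genes that handle pyruvate and lactate 5 fell: Mpc2, Bsg, Pdk2, Pdk4 and Pdha1. Pdha1, a subunit of the pyruvate dehydrogenase that commits pyruvate to the citric acid cycle, had 64.4, 55.2 and 61.6 CPM in KO TAC hearts, against 116, 439.8 and 468 CPM in the WT TAC group (log2 fold change −2.50 ± 0.70, adjusted p = 0.0339). Pdk4, the kinase that switches that enzyme off, had 113, 46.2 and 107 CPM in KO TAC hearts, against 242, 304 and 657 CPM in the WT TAC group (log2 fold change −2.18 ± 0.56, adjusted p = 0.0278). Mpc2, a subunit of the mitochondrial pyruvate carrier, had a log2 fold change of −1.10 ± 0.25 (adjusted p = 0.0210), and Bsg, the chaperone of MCT1, one of −0.95 ± 0.24 (adjusted p = 0.0270).

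Between KO TAC and WT TAC hearts Taldo1 and H6pd of the 8 genes of the pentose phosphate pathway fell, with log2 fold changes of −0.50 ± 0.16 and −0.61 ± 0.20 (adjusted p = 0.0477 and 0.0479). The transketolase Tkt had 38.1, 46.2 and 52.4 CPM in KO TAC hearts, against 36.6, 21.4 and 21.5 CPM in WT TAC hearts, and did not pass (adjusted p = 0.0624). None of 6 hexosamine genes passed in edgeR, and 2 had an unadjusted p under 0.05. Of 12 further transporters and glycolytic isoforms Bpgm, the bisphosphoglycerate mutase of red cells, fell by a log2 fold change of −0.61 ± 0.18 (adjusted p = 0.0374). Of 14 regulators of glucose use 1 rose and 1 fell. Mlxipl, which encodes the glucose-sensing factor ChREBP, rose with 66.1, 83.9 and 71.8 CPM in KO TAC hearts, against 57.1, 39.7 and 42.5 CPM in the WT TAC group (log2 fold change 0.67 ± 0.18, adjusted p = 0.0318). Prkaa2, the catalytic subunit of the energy sensor AMPK in muscle, fell with 21.7, 18.1 and 23.3 CPM in KO TAC hearts, against 42.4, 113 and 107 CPM in the WT TAC group (log2 fold change −2.06 ± 0.60, adjusted p = 0.0367). Irs1, the insulin receptor substrate, had 0.759, 0.861 and 0.590 CPM in KO TAC hearts, against 1.67, 5.05 and 4.52 CPM in WT TAC hearts (adjusted p = 0.0656).

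Several of these genes have near copies or share exons with a neighbour, and the sources used here do not say how reads were assigned or whether strand was used. Aldoa, Gapdh, Pgk1, Ldha, Pgam1 and Eno1 have named copies in the annotation, and no copy held more than 1.45% of the counts of its parent. How reads that match several copies were counted is not given, so the counts of these 6 genes are uncertain. Exons of Phkg1 overlap those of Sumf2 on the other strand over 9.68% of their length, and those of Gpi1 overlap a long noncoding RNA over 11.5%. Sumf2 had 1410 counts over all libraries against 5431 for Phkg1, and how far its reads enter the Phkg1 count was not tested. Pfkfb2 shares 17.4% of its exons with Gm29427, whose own count was 307 over all libraries against 21271 for Pfkfb2. Pkm shares 15.3% of its exons with Gm49759 on the same strand, which had 3424 counts against 151624 for Pkm. Pfkm shares 10.2% with Gm26513 on the same strand, which had 71 counts against 131118 for Pfkm. In GENCODE vM21, on build GRCm38, Pfkfb2 (ENSMUSG00000026409) lies on the minus strand of chromosome 1 from 130689182 to 130729253, and Phkg1 (ENSMUSG00000025537) on the minus strand of chromosome 5 from 129863421 to 129898549.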

How the data were processed

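RNA from heart tissue was sequenced as paired-end poly(A) libraries, per the labels' protocols, and aligned with HISAT2, per the submitters' processing notes. The authors deposited raw read counts per gene. The counter, genome build, annotation and use of strand were named neither there nor in the table. GENCODE vM21 gave symbols to 52081 of the 55357 identifiers, and exon lengths. Counts were filtered by group (filterByExpr), scaled by TMM and fitted with edgeR 4.0.16 in R 4.3.3 as 1 coefficient for each of 4 groups, with a robust quasi-likelihood test and Benjamini-Hochberg adjustment. Total counts of 14150109 to 22602225 per library set the counting error. The edgeR fit was also tried on simulated counts, with a capped spread and no library standing apart from its group. That trial does not show how the fit treats libraries such as KO sham replicate 1. DESeq2 1.42.0, limma-voom with a weight for each library (limma 3.58.1), other scalings and filters, a replicate block and leaving out libraries were alternatives.

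The genes and lists were chosen with earlier results of these data known. Values per library were to be given for the 8 genes with the smallest p where genes passed, the 4 with the smallest p where none did, and isoform pairs. Gys1, Gbe1, Ugp2, Pfkfb1 and Pfkfb3 were added, and Pdk2 named, after their values were seen. Scaling to heart muscle markers was also chosen after seeing the data. Without KO sham replicate 1 the adjustment ran over 16196 genes.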

Additional observations from a re-analysis of the deposited data

Results flagged for a closer look

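For Pfkfb2, Pfkp and Phkg1 the TAC libraries lay on opposite sides of the sham libraries in the 2 genotypes, with no overlap in either, although no TAC effect of these 3 passed within a genotype with all libraries. The difference of the TAC effects, KO minus WT, was 1.23 for Pfkfb2, −0.89 for Pfkp and 1.55 for Phkg1 on the log2 scale. An arrangement of this kind was found for 3 of the 31 genes and for 173 of all 15804 tested genes (1.09%). Tested in edgeR, none of the 3 differences passed with all libraries (adjusted p = 0.162, 0.227 and 0.308). The test uses the values that picked the 3 genes, so it adds no independent evidence.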

How the results depend on the processing

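Counts of all genes called in the same fit follow each count in parentheses. Between KO TAC and WT TAC hearts 18 of the 31 passed (3219). The number was 11 (2849) with no filter on low counts, 7 (2750) with heart muscle markers as library size and 1 to 25 (43 to 6585) when each library was left out in turn. It was 22 (4585) by DESeq2, 27 (7648) by limma-voom and 22 (4510) with only the compared groups. With KO sham replicate 1 and WT TAC replicate 1 both left out it was 27 (8614). All these fits use the same libraries, so they are not independent evidence. The median over the 31 stood at −0.16 under the marker scaling, and by library totals at −0.94, where that of all genes stood at −0.24. In KO TAC against KO sham hearts 0 passed (0), against 12 (1757) by DESeq2, 27 (9991) by limma-voom, 5 (687) with no filter, 27 (8879) with KO sham replicate 1 and WT TAC replicate 1 both left out, and 0 to 27 (0 to 7708) with each library left out in turn. In WT TAC against WT sham hearts 0 passed (5), against 3 (466) by DESeq2, 3 (1030) by limma-voom, 2 (137) with no filter, 4 (989) with both libraries left out, and 0 to 3 (1 to 1058) with each left out in turn. In KO sham against WT sham hearts 0 passed (1), against 1 (183) by DESeq2, 6 (2351) by limma-voom, 2 (295) with both libraries left out and 0 (0 to 39) with each left out in turn. For the difference of TAC effects 0 passed (0), against 3 (81) by DESeq2, 22 (5056) by limma-voom, 1 (43) with no filter, 24 (5774) with both libraries left out and 0 to 16 (0 to 1961) with each left out in turn. The cause was not tested.

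With the replicate number as a block, 9 genes passed (2411) in KO TAC against WT TAC hearts and 0 in the other comparisons. Same-numbered libraries did not deviate together, with correlations of −0.19 to 0.06, so the numbers were not taken to pair the samples.

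Signs were compared for all 31 genes in KO TAC against WT TAC and in KO TAC against KO sham hearts. In the other comparisons they were compared only for the 4 genes with the smallest p. Among these, signs turned in few cases, none of them past the threshold under the setting that turned it. Genes outside this check turned too. Under the marker scaling, Tpi1 went from −0.027 to 0.11 in WT TAC against WT sham hearts. The median over the 31 went from −0.31 to 0.15 in KO sham against WT sham hearts. With heart muscle markers as library size, log2 fold changes in KO TAC against WT TAC hearts were 0.28 for Gpi1, 0.18 for Pfkp, 0.15 for Pfkl, 0.37 for Pfkfb1 and 0.045 for Eno1. In KO TAC against KO sham hearts they were 0.034 for Gpi1, 0.13 for Pfkl and 0.067 for Aldoa, and in KO sham against WT sham hearts 0.13 for Slc2a1 and 0.11 for Phkg1. By library totals Slc16a3 stood at −0.035 in KO TAC against WT TAC and Slc2a1 at −0.12 in KO TAC against KO sham hearts. Pfkfb1 stood at 0.13 in KO TAC against WT TAC hearts with both libraries left out, and between −0.53 and 0.14 with each left out in turn. In KO TAC against KO sham hearts the same range was −0.022 to 0.12 for Slc2a1 and −0.30 to 0.078 for Pfkl. Depth limits Slc16a3 most, with 12 to 64 counts per library, the fewest of the 31 genes.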
